A study of Mus musculus with 15 samples.

Results

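Casein (CAS) was compared with the medium control (MC) in monolayers of mouse duodenal organoid cells, on 6 of the 15 arrays of the series. The 3 CAS arrays carry the agent label CAS and the 3 MC arrays the label of a medium blank. All organoids came from the duodenum of female wild type C57BL/6J mice aged 9 weeks, were grown in a medium with WNT3A, R-spondin, noggin and epidermal growth factor, and were plated as confluent 2D monolayers. CAS monolayers received the soluble part of bovine casein, dissolved in DMEM and added at 4% w/v for 6 h, and MC monolayers received DMEM alone for the same 6 h. The methods also give the dose as a mass per volume that is not the same quantity, so the dose is not settled here. The other 9 arrays are of soybean meal (SBM), of plasma protein that was spray dried (SDPP) and of yellow meal worm (YMW). There are 3 per source, and their gene levels are described only where CAS is set against them. They also enter the SEs and p-values of CAS against MC, because the main fit uses all 15 arrays.

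Each array holds the RNA of 3 pooled wells. The organoids came from 3 mice, but the labels do not tie a replicate number to a mouse, so p-values measure the spread between these samples. A monolayer of organoid cells has no immune or stromal layer, and its epithelium holds dividing crypt cells together with cells that have begun to mature. Casein is the main protein of milk. In the intestine it is cut by pepsin, pancreatic proteases and brush border peptidases before it is absorbed, and here it was added to the apical side of the cells undigested. The duodenal epithelium takes up nutrients, senses its lumen and sends cytokines and chemokines to the immune cells below it.

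Values are log2 intensities, which are comparable between arrays for 1 gene and not between genes. Of 18820 genes measured, 13144 had a mean above background in CAS or MC, where background is a log2 intensity of 3.91. Before conversion to log2, the median intensity of the 15 arrays lay between 21.68 and 24.14, where background is 15.06. MC replicate 1 stood apart from the other MC arrays. Across genes above background its correlation with the CAS arrays was between 0.991 and 0.994, whereas with MC replicates 2 and 3 it was 0.971 and 0.959. The genes described are therefore those whose 3 CAS arrays all lie beyond all 3 MC arrays. Medians of some gene lists, not of all, are also given against MC replicate 1 alone and without it.

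The study's own rule for a changed gene asks for an unadjusted p below 0.05, here from limma, together with a change of 1.5-fold or more, and it is called the threshold below. Adjusted p-values are Benjamini-Hochberg values from limma over all 18820 genes. With CAS 725 genes passed it (3.85% of those tested), 342 higher (1.82%) and 383 lower (2.04%), and 123 genes (0.654%) had an adjusted p under 0.05, 72 higher (0.383%) and 51 lower (0.271%). These p-values come from the fit of all 15 arrays. With the 6 CAS and MC arrays fitted alone, 0 genes had an adjusted p under 0.05 from limma. The CAS and MC arrays did not overlap in 2492 genes (13.2%), with 1063 higher (5.65%) and 1429 lower (7.59%) in CAS. Past the threshold and without overlap stood 251 genes (1.33%), of which 138 were higher (0.733%) and 113 lower (0.6%). In the other 474 genes past the threshold, 204 higher and 270 lower, MC replicate 1 lay within or beyond the CAS arrays every time, and MC replicates 2 and 3 did so in 0. An exact permutation test of 3 arrays against 3 cannot give a p below 0.1.

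The 251 genes were chosen by the comparison that describes them, so their size and direction are a description. For 104 of the 138 higher genes and 102 of the 113 lower genes, the MC array nearest to CAS was replicate 1. The median log2 fold change of the higher genes was 0.79 against all MC arrays, 0.45 against MC replicate 1 alone and 0.89 without it. For the lower genes the medians were −0.69, −0.32 and −0.89. With MC replicate 1 as the only control, 44 of the higher and 14 of the lower genes still passed the threshold, as did 0.43% and 0.404% of all genes (0.834% in either direction). Without it 128 and 111 passed, beside 4.59% and 4.48% of all genes (9.08%), and with the 6 arrays fitted alone 137 and 113, beside 1.17% and 1.22% (2.39%). In 29 higher and 15 lower genes the gap between the nearest CAS and MC arrays was wider than the whole range of the MC arrays.

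**Figure D1:**
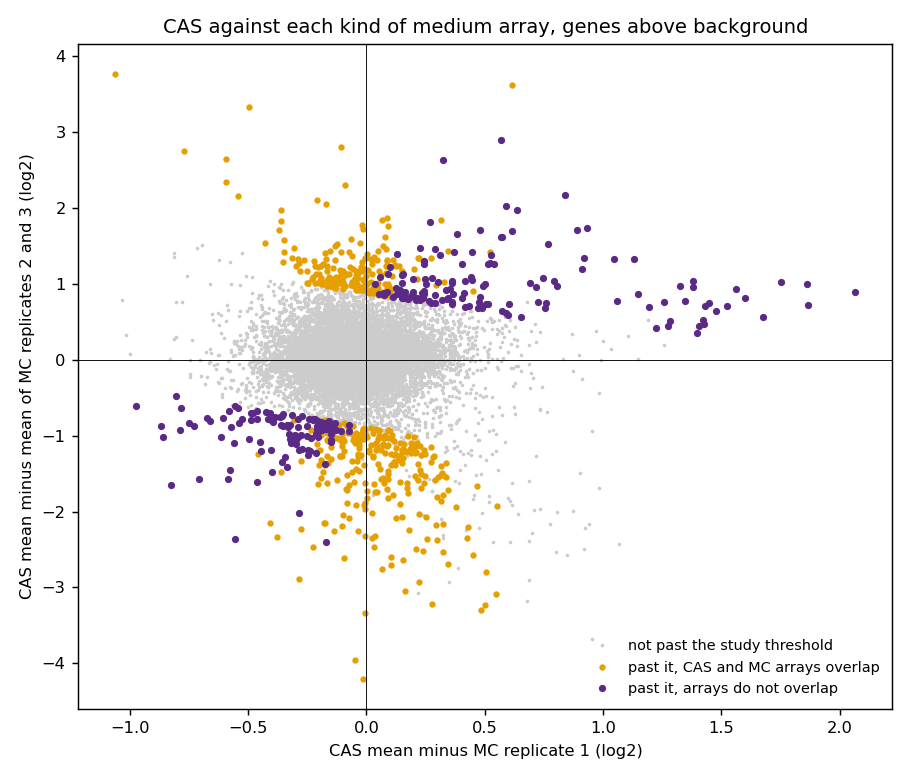
Each point is a gene above background, with the CAS mean minus MC replicate 1 on the x axis and the CAS mean minus the mean of MC replicates 2 and 3 on the y axis, both as log2 differences. The orange genes, past the study's threshold with overlapping arrays, spread on either side of 0 on the x axis, and the purple genes, whose arrays do not overlap, lie on the same side of 0 on both axes.

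Tenm4, Apobec2, Tnfsf13b and Mfsd4a had the widest gaps among the higher genes. Tenm4, a teneurin of the cell surface that guides contacts between neurons, had 6.05, 6.04 and 5.98 in CAS and 4.98, 4.73 and 4.67 in MC replicates 1, 2 and 3. Every CAS array was thus at least 1.01 above every MC array, and the log2 fold change was 1.23 (SE 0.10, n = 3 arrays per group, adjusted p = 0.000151). Apobec2, a member of the family of cytidine deaminases that is best known from muscle, had 5.51, 5.83 and 5.21 in CAS and 4.39, 4.34 and 4.03 in the MC (1.26, SE 0.19, adjusted p = 0.0107). Mfsd4a, a membrane transporter of the major facilitator family, had 8.56, 8.54 and 8.51 in CAS and 7.75, 7.48 and 7.52 in the MC (0.96, SE 0.09, adjusted p = 0.000201). In these 3 genes MC replicate 1 was the MC array nearest to CAS, and the gap to it was still wider than the range of the MC arrays.

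Tnfsf13b encodes BAFF, a cytokine of the TNF family that keeps B cells alive. Its level was 7.24, 7.35 and 7.30 in CAS and 5.92, 6.44 and 6.09 in the MC, and here MC replicate 1 was the farthest from CAS. The difference was 1.38 against MC replicate 1 alone and 1.03 without it. A second, dimmer probe set of Tnfsf13b gave a log2 fold change of 0.30, again without overlap of the arrays, so the size of the change depends on the probe set. Of 17 measured genes that signal to B cells or plasma cells, 2 passed the threshold higher and 2 lower (11.8% each, against 1.82% and 2.04% of all genes). Aldh1a1, which makes retinoic acid, was the other member without overlap past the threshold, at 6.74, 6.95 and 7.41 in CAS and 7.90, 8.23 and 7.59 in the MC (−0.88, SE 0.21, adjusted p = 0.0841).

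**Figure D2:**
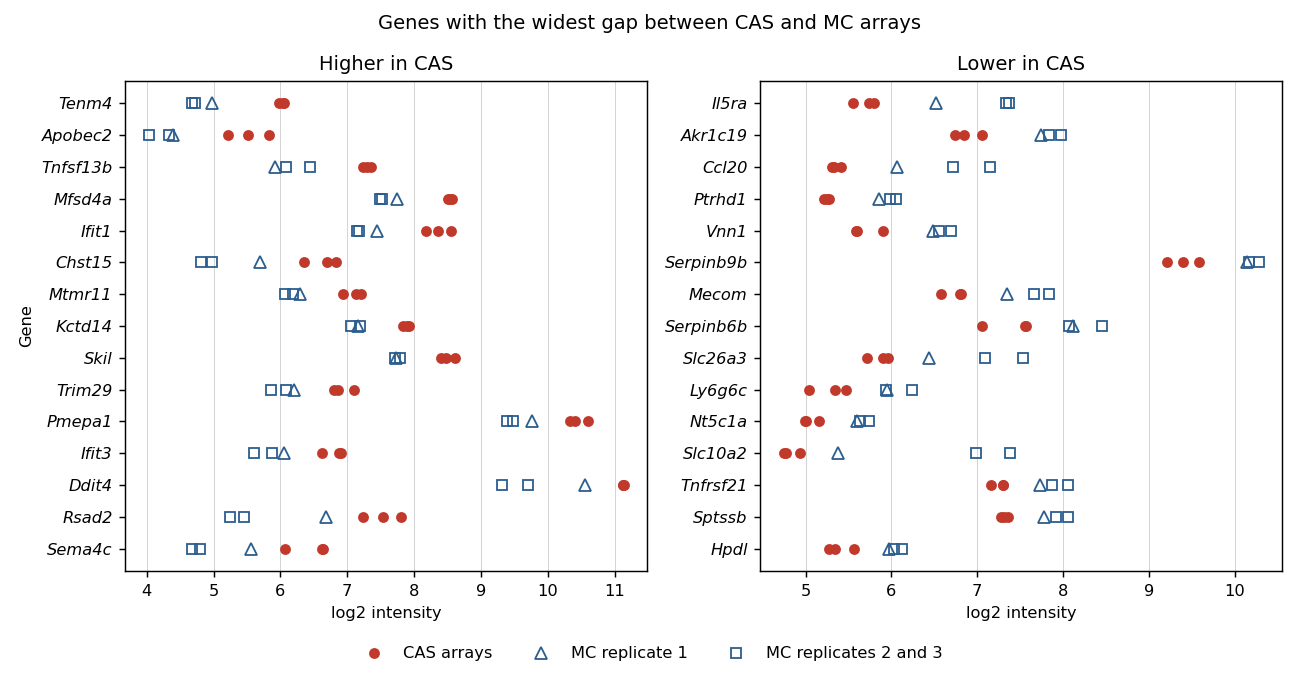
Log2 intensity (x axis) of the 15 higher and 15 lower genes with the widest gap between nearest CAS and MC arrays, with 1 symbol per array and the genes ordered from the widest gap at the top. Filled circles are CAS arrays, triangles MC replicate 1 and squares MC replicates 2 and 3, and no circle overlaps a triangle or square in any row.

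Mtmr11, a member of the myotubularin family without phosphatase activity, and Kctd14, of a family that includes adaptors of ubiquitin ligases, were also apart by more than the range of the MC arrays. Mtmr11 had 6.94, 7.14 and 7.21 in CAS and 6.29, 6.19 and 6.06 in the MC (0.92, SE 0.12, adjusted p = 0.00622). Kctd14 had 7.89, 7.83 and 7.92 in CAS and 7.16, 7.19 and 7.05 in the MC (0.75, SE 0.11, adjusted p = 0.00867). Of the 15 higher genes plotted, 11 had such a gap, with gaps between 0.52 and 1.01, and so had 11 of the 15 lower genes, with gaps between 0.41 and 0.73.

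Feedback genes of TGF-beta signalling were among those that moved away from all MC arrays. TGF-beta binds a pair of receptor kinases, which phosphorylate SMAD proteins, and the SMAD proteins then switch on genes that include inhibitors of the same pathway. Skil, which encodes the SMAD repressor SnoN, had 8.40, 8.48 and 8.61 in CAS and 7.73, 7.71 and 7.79 in the MC. The 3 MC arrays spanned 0.08 while the gap to CAS was 0.61, and the log2 fold change was 0.75 (SE 0.10, adjusted p = 0.00811). Pmepa1, a membrane protein that takes SMAD proteins away from the receptor, had 10.60, 10.41 and 10.33 in CAS and 9.76, 9.40 and 9.48 in the MC (0.90, SE 0.11, adjusted p = 0.00421).

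Bambi, a decoy receptor of the same family, had 5.98, 5.69 and 5.57 in CAS and 5.15, 5.13 and 5.19 in the MC (0.59, SE 0.12, adjusted p = 0.0435). Of 22 measured genes of the TGF-beta and BMP list, 6 were higher in CAS without overlap and 0 lower (27.3% and 0%, against 5.65% and 7.59% of all genes). In all 4 genes of the list passed the threshold higher and 2 lower (18.2% and 9.09%, against 1.82% and 2.04% of all genes). Skil, Pmepa1 and Bambi passed it higher without overlap, and their differences from MC replicate 1 alone were 0.76, 0.69 and 0.60. The list as a whole did not shift, with a median of 0.02 beside −0.00 for all genes. Tgfb1, the ligand, had 6.98, 6.73 and 6.43 in CAS and 6.50, 5.77 and 5.55 in the MC, so that its arrays overlapped, as did those of Id3 and Tgfbi, the 2 lower genes (−0.89 and −1.18).

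Ldlrad4, a further inhibitor of this pathway that was named after its values were seen, had 5.65, 5.54 and 5.37 in CAS and 5.04, 4.94 and 4.58 in the MC (0.67, SE 0.13, adjusted p = 0.0435). Lama3, a laminin chain of the basement membrane, had 7.12, 7.24 and 7.52 in CAS and 6.71, 6.56 and 6.79 in the MC (0.61, SE 0.12, adjusted p = 0.0447). Pdgfb, a growth factor for mesenchymal cells, had 8.19, 8.15 and 7.76 in CAS and 7.70, 7.05 and 7.19 in the MC, with a gap of 0.07. MC replicate 1 was closer to the CAS arrays in Pdgfb than in Ldlrad4 or Lama3.

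Interferon-stimulated genes that moved were higher with CAS. Interferons bind receptors on nearly every cell, and the STAT and IRF factors they activate switch on proteins that bind viral RNA, block translation or draw in T cells. Of 40 measured members 15 were higher without overlap and 0 lower (37.5% and 0%, against 5.65% and 7.59% of all genes). The threshold was passed by 8 members, all higher (20%, against 1.82% of all genes). An adjusted p under 0.05 from limma was reached by 1, also higher, beside 0.383% of all genes. The median of the list was 0.25 against all MC arrays, 0.37 against MC replicate 1 alone and 0.17 without it. The mean log2 intensity of the list lay between 6.23 and 6.40 in the CAS arrays, against 5.93, 5.92 and 5.97 in MC replicates 1, 2 and 3.

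Ifit1, which binds viral RNA that lacks a host cap, had 8.18, 8.55 and 8.35 in CAS and 7.45, 7.15 and 7.17 in the MC (1.10, SE 0.36, adjusted p = 0.148). Ifit3, its partner in a complex, had 6.62, 6.91 and 6.88 in CAS and 6.06, 5.87 and 5.60 in the MC (0.96, SE 0.33, adjusted p = 0.168). Rsad2, which encodes viperin, an enzyme that makes a chain terminator of viral RNA, had 7.53, 7.80 and 7.23 in CAS and 6.68, 5.45 and 5.24 in the MC (1.73, SE 0.40, adjusted p = 0.068). The 3 genes passed the threshold, and their adjusted p-values were not under 0.05. Their SEs pool the spread of all 5 groups. With the 6 CAS and MC arrays fitted alone, the SE was 0.14 for Ifit1, 0.15 for Ifit3 and 0.37 for Rsad2. The adjusted p-values from limma were then 0.205, 0.344 and 0.435.

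Rsad2 and its neighbour Cmpk2, a nucleotide kinase of mitochondria, were nearer to CAS in MC replicate 1 than in the other MC arrays. Cmpk2 had 6.46, 6.68 and 6.28 in CAS and 5.96, 5.37 and 5.07 in the MC (1.01, SE 0.27, adjusted p = 0.101). The same held for Ifit2, Cxcl10 and Gbp7, which also passed without overlap and were named after their values were seen. Cxcl10, a chemokine for T cells, had 7.69, 7.93 and 7.19 in CAS and 7.04, 4.83 and 4.59 in the MC, a log2 fold change of 2.12 (SE 0.50, adjusted p = 0.0768) that was 0.57 against MC replicate 1 alone. Ifit2 was the member with an adjusted p under 0.05 (1.55, SE 0.32, adjusted p = 0.0476), and it was higher by 0.59 against MC replicate 1 alone.

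Promoters of these genes were read because the genes moved together, and the stretches that hold the interferon response element are shown for 4 of them. The element was searched as GAAA, then 2 bases of any kind, then GAAA, on both strands of the 250 bases before to 50 bases after each RefSeq start (GRCm38.p6), and capitals mark each match.
Ifit1: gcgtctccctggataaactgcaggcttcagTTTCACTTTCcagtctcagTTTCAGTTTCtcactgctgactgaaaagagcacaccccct
Ifit3: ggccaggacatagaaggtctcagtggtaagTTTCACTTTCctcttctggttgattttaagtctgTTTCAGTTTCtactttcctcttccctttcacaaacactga
Rsad2: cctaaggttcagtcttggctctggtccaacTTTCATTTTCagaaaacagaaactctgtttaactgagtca
Cxcl10: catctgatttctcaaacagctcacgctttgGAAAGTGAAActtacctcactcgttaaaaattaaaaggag
Each is written 5′ to 3′ along the gene. They lie at chr19:34640755-34640843 on the plus strand for Ifit1, chr19:34583343-34583446 on the plus strand for Ifit3, chr12:26456533-26456602 on the minus strand for Rsad2 and chr5:92349063-92349132 on the minus strand for Cxcl10. In Ifit1, Ifit3 and Rsad2 the match reads on the opposite strand, and in Cxcl10 along the gene.

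The element was found in 3.44% of all 32851 promoters and in 3.91% of the 14749 measured genes with a promoter in the table. Of the 30 interferon-stimulated genes that matched the table, 16 held it, among them 7 of the 10 whose CAS arrays lay above all MC arrays and 9 of the 20 whose arrays overlapped. Ifit2 and Cmpk2, described above, had no match to the element in the promoters read. Among the genes past the threshold without overlap, it was in 9 of 87 higher genes (10.3%) and 5 of 96 lower genes (5.21%). The AP-1 letters TGANTCA were in 11.5% of the higher and 17.7% of the lower genes, against 7.92% of measured genes. A match is a description of these letters, and it does not show a bound factor.

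Cytokine and chemokine genes of the epithelium moved in either direction. Of 51 measured members, 3 passed the threshold higher and 8 lower, beside 1.82% and 2.04% of all genes. Without overlap 5 were higher and 9 lower (9.8% and 17.6%, against 5.65% and 7.59% of all genes). Il5ra, a subunit of the interleukin 5 receptor that is best known from eosinophils, had the widest gap of all lower genes, with 5.79, 5.74 and 5.55 in CAS and 6.52, 7.33 and 7.37 in the MC. The log2 fold change of Il5ra was −1.38 (SE 0.23, adjusted p = 0.0211). Ccl20, the chemokine that draws CCR6-positive lymphocytes and dendritic cells, had 5.34, 5.31 and 5.42 in CAS and 6.06, 6.71 and 7.15 in the MC (−1.29, SE 0.21, adjusted p = 0.0171). Il18, a cytokine that the inflammasome releases, had 5.82, 5.71 and 6.07 in CAS and 6.45, 7.25 and 7.62 in the MC (−1.24, SE 0.28, adjusted p = 0.0658).

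Il1rn, the secreted antagonist of interleukin 1, was lower as well, at 8.57, 8.52 and 8.70 in CAS and 8.81, 9.43 and 9.58 in the MC (−0.67, SE 0.14, adjusted p = 0.0504). Ccl5, a chemokine for T cells, went the other way, with 5.98, 6.38 and 5.89 in CAS and 5.71, 4.63 and 4.69 in the MC (1.07, SE 0.24, adjusted p = 0.0643). Against MC replicate 1 alone the log2 differences were −0.82 for Il5ra, −0.71 for Ccl20, −0.59 for Il18, −0.21 for Il1rn and 0.37 for Ccl5. Il5ra, Ccl20 and Il18 thus kept a difference of over 0.5 from the MC array most like the treated ones, and Il1rn and Ccl5 did not.

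Genes for glutathione and oxidants that moved were lower with CAS. Glutathione transferases join the tripeptide glutathione to reactive compounds, and the factor NRF2 and its targets answer oxidative stress. Of 42 measured glutathione genes, 10 were lower without overlap and 0 higher (23.8% and 0%, against 7.59% and 5.65% of all genes). The threshold was passed by 7 genes of the list, all lower (16.7%, against 2.04% of all genes), and only 3 of these 7 were among the 10 without overlap. An adjusted p under 0.05 was reached by 2 genes of the list, both lower, beside 0.271% of all genes. The summed intensity of the list was between 24502 and 25236 in the CAS arrays, below all MC arrays, which had 27786 to 31128.

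Gsta4, which conjugates the lipid aldehyde hydroxynonenal, had 10.89, 11.12 and 11.28 in CAS and 11.39, 12.06 and 12.26 in the MC (−0.81, SE 0.18, adjusted p = 0.0625). Gstm1 had 9.63, 9.83 and 9.72 in CAS and 9.93, 10.73 and 10.67 in the MC (−0.72, SE 0.15, adjusted p = 0.0491). Gstm7 had 5.82, 5.75 and 5.71 in CAS and 5.98, 6.65 and 6.42 in the MC (−0.60, SE 0.14, adjusted p = 0.0717). Members of the Gstm family are alike in sequence, so their probes may share signal. MC replicate 1 was the nearest MC array in these genes, and against it alone 1 gene of the list passed the threshold.

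Akr1c19, a reductase of the aldo-keto family, had 6.74, 6.85 and 7.06 in CAS and 7.74, 7.97 and 7.84 in the MC (−0.97, SE 0.13, adjusted p = 0.00811). Ptgr1, which inactivates leukotrienes and prostaglandins and is an NRF2 target, had 9.91, 10.01 and 9.91 in CAS and 10.35, 10.58 and 10.72 in the MC (−0.60, SE 0.10, adjusted p = 0.0154). Osgin1, a gene induced by oxidized lipids, had 6.06, 6.29 and 6.68 in CAS and 6.84, 7.30 and 7.47 in the MC (−0.86, SE 0.18, adjusted p = 0.0491). Vnn1, the pantetheinase that releases cysteamine and a target of PPAR-alpha, had 5.59, 5.60 and 5.90 in CAS and 6.48, 6.55 and 6.69 in the MC (−0.88, SE 0.13, adjusted p = 0.00867). In Akr1c19 and Vnn1 the gap was wider than the range of the MC arrays. The NRF2 targets as a list did not shift much: of 25 measured, 10 were higher and 15 lower, with a median of −0.06. The threshold was passed by 2 of the list, both lower (8%, against 2.04% of all genes). Without overlap 4 were lower and 0 higher (16% and 0%, against 7.59% and 5.65% of all genes).

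Other genes with a wide gap on the lower side included Mecom, Serpinb9b and Ptrhd1. Mecom, a zinc finger factor of progenitor cells, had 6.57, 6.80 and 6.82 in CAS and 7.34, 7.66 and 7.84 in the MC (−0.89, SE 0.14, adjusted p = 0.0107). Serpinb9b, an inhibitor of serine proteases, had 9.40, 9.20 and 9.58 in CAS and 10.14, 10.17 and 10.28 in the MC (−0.80, SE 0.12, adjusted p = 0.0107). Serpinb6b, of the same family, had a log2 fold change of −0.82 (SE 0.16, adjusted p = 0.0435), and the probes of this family may also share signal. Ptrhd1 had 5.27, 5.25 and 5.22 in CAS and 5.85, 5.98 and 6.05 in the MC (−0.72, SE 0.12, adjusted p = 0.0221).

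Slc10a2, the apical sodium-dependent transporter of bile acids, had the largest fall among the genes without overlap. Its level was 4.75, 4.77 and 4.94 in CAS and 5.38, 6.99 and 7.38 in the MC (−1.76, SE 0.34, adjusted p = 0.0413). The log2 fold change was −0.56 against MC replicate 1 alone and −2.36 without that array. Slc26a3, the chloride and bicarbonate exchanger of the brush border, had 5.71, 5.91 and 5.96 in CAS and 6.44, 7.53 and 7.09 in the MC (−1.16, SE 0.24, adjusted p = 0.0481). The size of the change in these 2 transporters therefore depends on which MC array is used.

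Some targets of the hypoxia-inducible factor lay apart on the higher side. This factor is stable at low oxygen and also answers growth signals, and its targets serve glycolysis, autophagy and the growth of vessels. Of 31 measured targets 9 were higher without overlap and 0 lower (29.0% and 0%, against 5.65% and 7.59% of all genes). The threshold was passed by 4 higher and 1 lower (12.9% and 3.23%, against 1.82% and 2.04%). An adjusted p under 0.05 from limma was reached by 2, both higher, beside 0.383% of all genes. Of the 31 targets 11 had a negative change. The median was 0.22 against all MC arrays, 0.19 against MC replicate 1 alone and 0.23 without it.

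Ddit4, which encodes REDD1, an inhibitor of the kinase mTORC1, had 11.13, 11.12 and 11.14 in CAS and 10.56, 9.70 and 9.32 in the MC (1.27, SE 0.22, adjusted p = 0.0211). Adm, the precursor of the vasodilator adrenomedullin, had 9.03, 9.22 and 9.39 in CAS and 8.81, 8.37 and 8.43 in the MC (0.68, SE 0.21, adjusted p = 0.137). P4ha2, a hydroxylase of collagen, lay apart by a gap of 0.09 (0.62, SE 0.16, adjusted p = 0.092). Trib3, a pseudokinase of the amino acid stress response, had 8.04, 8.35 and 8.31 in CAS and 7.87, 7.34 and 7.40 in the MC (0.70, SE 0.17, adjusted p = 0.0861). The stress list that holds Ddit4 and Trib3 had a median of 0.22 over 25 genes but −0.09 against MC replicate 1 alone.

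Genes of the cytoskeleton and of cell contacts split. Rhob, a GTPase of endosomes and actin fibres, had 8.14, 8.24 and 8.35 in CAS and 7.05, 7.47 and 7.63 in the MC (0.86, SE 0.18, adjusted p = 0.0491). Rhoc, its relative at the cell cortex, had 6.51, 6.76 and 6.95 in CAS and 7.08, 8.15 and 8.16 in the MC (−1.05, SE 0.25, adjusted p = 0.0717). Rhob was lowest in MC replicate 1, so that its difference from that array was 1.20.

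Sema4c, a semaphorin that binds plexin B2, had 6.62, 6.64 and 6.07 in CAS and 5.55, 4.67 and 4.80 in the MC (1.44, SE 0.20, adjusted p = 0.00811). Chst15, which adds sulfate to chondroitin, had 6.35, 6.83 and 6.70 in CAS and 5.70, 4.98 and 4.82 in the MC (1.47, SE 0.21, adjusted p = 0.00811). Over the 41 measured semaphorins, ephrins and receptors, 4 were higher and 4 lower without overlap (9.76% each, against 5.65% and 7.59% of all genes), and the median was −0.04. Of 27 tight junction genes 8 were lower and 1 higher without overlap (29.6% and 3.7%, against 7.59% and 5.65% of all genes). The threshold was passed by 0 of them, beside 3.85% of all genes. At an unadjusted p under 0.05 from limma, 12 of them were lower and 1 higher, beside 8.91% and 7.59% of all genes (16.5% in either direction). The median of the tight junction list was −0.21 against all MC arrays, −0.07 against MC replicate 1 alone and −0.29 without it. Ocln, which encodes occludin, had a log2 fold change of −0.51 (SE 0.12), and Tjp1, which encodes ZO-1, one of −0.35 (SE 0.10), both named after their values were seen.

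Small nucleolar RNAs, which guide the modification of ribosomal RNA and mostly lie in introns of host genes, stood out on the higher side. They were gathered after their values were seen. Of 56 measured, 21 passed the threshold higher and 0 lower (37.5%, against 1.82% of all genes). Without overlap 31 were higher (55.4%, against 5.65% of all genes) and 1 lower, beside 7.59%. Their median log2 intensity was 7.36, 7.46 and 7.08 in the CAS arrays and 6.31, 6.90 and 6.69 in MC replicates 1, 2 and 3. Here MC replicate 1 was farther from CAS than the other MC arrays, with a median difference of 0.57 against it alone and 0.29 without it.

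Snord49a had 10.11, 10.12 and 9.84 in CAS and 8.27, 9.10 and 8.91 in the MC (1.26, SE 0.22, adjusted p = 0.0211). Snora34 had 5.78, 5.97 and 5.59 in CAS and 4.40, 4.74 and 4.90 in the MC (1.10, SE 0.15, adjusted p = 0.00811). For SBM, SDPP and YMW the log2 fold changes of Snord49a against the same MC arrays were 1.25, 1.05 and 0.85, and 0 of the 56 differed between CAS and the other sources at an adjusted p under 0.05. Of 25 core histone genes 8 were higher past the threshold and 0 lower (32.0% higher, against 1.82% of all genes), with a median of 0.40. By contrast 0 of 295 microRNA genes passed, beside 3.85% of all genes. At an unadjusted p under 0.05 from limma 4 of these were higher and 10 lower, beside 7.59% and 8.91% of all genes. How well small or unpolyadenylated RNAs were recovered from each sample was not measured here, and its part in these values was not tested.

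**Figure D3:**
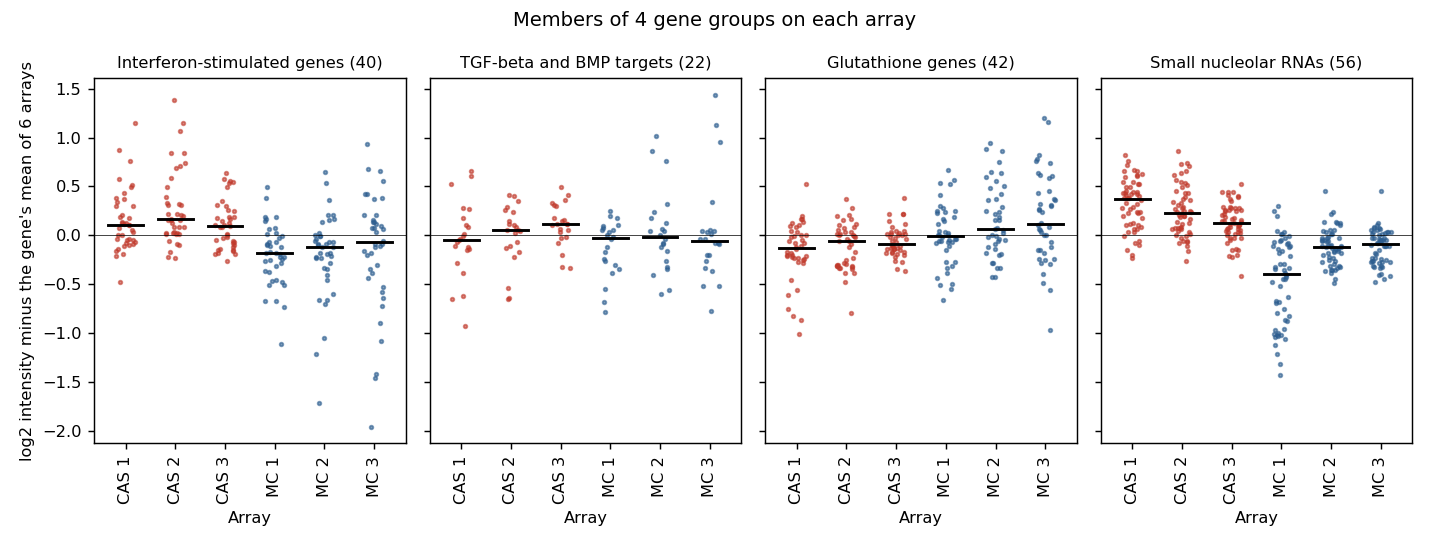
Log2 intensity of each member minus its mean over the 6 arrays (y axis), for the 3 CAS arrays in red and the 3 MC arrays in blue, with 1 point per gene and a black line at the median. Small nucleolar RNAs and interferon-stimulated genes sit above 0 by their median in each CAS array and below it in each MC array, glutathione genes sit below 0 in each CAS array, and the medians of the TGF-beta list stay near 0.

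Markers of cell types depended on the MC array. Fewer cells of a type and less RNA per cell cannot be told apart in these bulk samples. Of 23 measured markers of absorptive enterocytes 7 passed the threshold, all lower (30.4%, against 2.04% of all genes), and 0 did so without overlap, beside 0.6% of all genes. Their mean log2 intensity was between 7.54 and 8.62 in the CAS arrays, against 7.63 in MC replicate 1 and 9.85 and 9.89 in MC replicates 2 and 3. The median was −1.29 against all MC arrays, 0.30 against MC replicate 1 alone and −2.05 without it.

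The 26 genes of G2 and mitosis did the reverse, with 19 past the threshold, all higher (73.1%, against 1.82% of all genes), and 0 without overlap, beside 0.733%. The median was 0.65, and it was −0.13 against MC replicate 1 alone and 1.06 without it. Cenpf, a kinetochore protein, had 7.61, 7.68 and 7.70 in CAS and 7.80, 6.47 and 5.86 in the MC. Lgr5, the R-spondin receptor of crypt base stem cells, had 9.47, 9.53 and 9.36 in CAS and 9.51, 8.33 and 7.84 in the MC. For both genes MC replicate 1 lay within or above the CAS arrays.

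Lists of absorbed nutrients followed the enterocyte markers. The 30 genes of triglyceride synthesis and chylomicron assembly had a median of −0.74, with 0.26 against MC replicate 1 alone and −1.28 without it, and the 28 genes of cholesterol had −0.48, 0.06 and −0.75. Of the cholesterol genes Mvk, a kinase of the mevalonate pathway, passed without overlap, at 7.60, 7.46 and 7.70 in CAS and 7.76, 8.85 and 9.06 in the MC (−0.97, SE 0.25, adjusted p = 0.0913). Slc15a1, the intestinal transporter of di- and tripeptides, had 3.89, 4.09 and 5.74 in CAS and 3.89, 7.30 and 7.66 in the MC, and it did not pass the threshold. Fn1, which encodes fibronectin, had 7.90, 7.61 and 7.35 in CAS and 8.12, 4.24 and 4.34 in the MC, and it passed the threshold with overlap.

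Sox9, a transcription factor of crypt and Paneth cells, was the stem cell marker that passed without overlap, at 9.73, 9.60 and 9.40 in CAS and 9.33, 8.78 and 8.26 in the MC (0.79, SE 0.22, adjusted p = 0.113). The Paneth cell gene Lyz1 had 11.58, 11.49 and 11.20 in CAS and 11.63, 10.98 and 10.71 in the MC, and the goblet cell gene Muc2 had 8.88, 8.82 and 9.30 in CAS and 9.49, 9.06 and 9.28 in the MC. Neither Lyz1 nor Muc2 passed the threshold. Of the 9 measured Paneth cell markers 2 passed it higher, beside 1.82% of all genes, and of the 11 goblet cell markers 2 passed it lower, beside 2.04%. Habp2, a serine protease that binds hyaluronan, was the Paneth list's member without overlap, at 7.76, 7.53 and 7.42 in CAS and 7.26, 6.23 and 6.17 in the MC (1.02, SE 0.24, adjusted p = 0.0695). The goblet cell genes Zg16 (−0.99) and Clca1 (−0.81) had an MC replicate 1 within the CAS range. The 12 pan-epithelial genes were above background, with a list mean between 10.85 and 10.91 in CAS and between 10.78 and 11.05 in the MC.

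Part of the markers of other tissues were above background. Of 14 leukocyte, 10 endothelial and 14 mesenchymal markers, 6, 5 and 9 were above it. Those above it included Vwf, Plvap, Col1a1, Col1a2 and Col3a1. Those not above it included Ptprc, Pecam1, Cdh5, Pdgfra, Dcn and Lum. Lyz2, a lysozyme of macrophages, had 6.63, 6.71 and 6.45 in CAS and 6.68, 6.23 and 5.90 in the MC. The threshold was passed by 0 leukocyte and 0 endothelial markers, beside 3.85% of all genes. Without overlap 2 endothelial markers, Cldn5 and Tie1, were lower and 0 higher (20% and 0%, against 7.59% and 5.65% of all genes). Fn1 was the 1 member of the mesenchymal list that passed, and it was higher (7.14%, against 1.82% of all genes). Its log2 fold change was 2.05 (SE 0.70, adjusted p = 0.165), and MC replicate 1 lay above its CAS arrays. The summed intensity was between 333 and 357 in CAS and between 296 and 359 in the MC for leukocyte markers, and between 416 and 497 in CAS and between 278 and 536 in the MC for mesenchymal markers. These ranges overlapped.

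**Figure D4:**
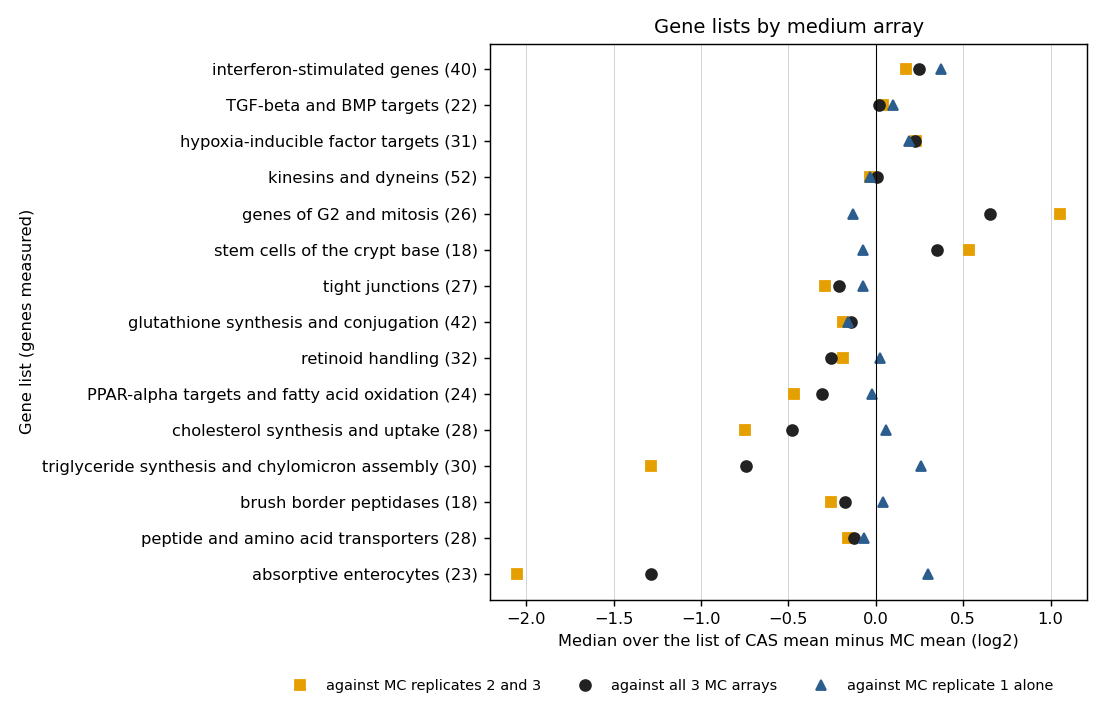
Median over each list of the CAS mean minus the MC mean (x axis, log2), with squares against MC replicates 2 and 3, circles against all 3 MC arrays and triangles against MC replicate 1 alone, and the number of genes measured in brackets. Enterocyte, triglyceride, cholesterol and mitosis lists change side between the squares and the triangles, while the interferon, hypoxia and glutathione lists keep their side. The list of PPAR-alpha targets and fatty acid oxidation also keeps its side, with its triangle at −0.02.

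Which of these genes differed between CAS and the other protein sources was asked in a direct comparison of CAS with the mean of SBM, SDPP and YMW. The difference itself uses no MC array, but its SE and p-values come from the fit of all groups, which includes the MC arrays. This direct comparison also shares the CAS arrays with the comparison above. The threshold was passed by 30 genes (0.159%), of which 25 were higher (0.133%) and 5 lower (0.0266%), and 20 genes (0.106%) had an adjusted p under 0.05, 18 higher (0.0956%) and 2 lower (0.0106%). Of the 138 genes that were higher than the MC without overlap, 13 had such an adjusted p, and of the 113 lower genes 1. The comparisons of each source with the MC share the MC arrays, so their values stand side by side only.

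Of the 15 genes with the widest gap on the higher side, 7 had an adjusted p under 0.05 in this comparison, and of the 15 on the lower side 0. These genes were chosen on the same CAS arrays, so the counts are a description. For CAS, SBM, SDPP and YMW in this order, the log2 fold changes of Tnfsf13b against the MC were 1.15, −0.15, 0.17 and −0.32. Skil had 0.75, −0.13, 0.11 and −0.08, and Pmepa1 had 0.90, −0.13, 0.23 and 0.07. The direct comparison gave 0.78 for Skil (SE 0.08, adjusted p = 0.000513) and 0.85 for Pmepa1 (SE 0.09, adjusted p = 0.000513).

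In the same order Rhob had 0.86, −0.53, 0.01 and −0.23, and Lama3 had 0.61, −0.10, 0.12 and −0.12. Tenm4 was above the MC with each source, by 1.23, 0.40, 0.42 and 0.48, and its CAS level exceeded the mean of the others by 0.80 (SE 0.08, adjusted p = 0.000513). Skil, Pmepa1, Lama3 and Rhob were thus near or below the MC with the other sources, while Tenm4 lay between the MC and CAS. Bambi, by contrast, had 0.59, 0.31, 0.48 and 0.25.

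Among the small nucleolar RNAs, 0 differed between CAS and the other sources at an adjusted p under 0.05 from limma. Interferon-stimulated genes were uneven with the other sources. The mean of their list ran between 5.74 and 6.62 over the arrays of all sources, and between 6.23 and 6.40 in CAS. Again in that order, Ifit3 had 0.96, 0.91, 0.86 and 0.55, and its difference between CAS and the others was 0.19 (SE 0.27, adjusted p = 1). Ifit1 had 1.10, 0.82, 0.72 and 0.14 (difference 0.54, SE 0.29, adjusted p = 0.977), so a difference of about that size was not resolved. By array, Ifit3 had 5.81, 7.19 and 7.26 with SBM, 6.58, 6.87 and 6.65 with SDPP and 7.04, 5.84 and 6.29 with YMW. The bile acid transporter gene Slc10a2 had −1.76, −1.63, −1.62 and −1.89.

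Cyp1a1, the cytochrome P450 that the aryl hydrocarbon receptor switches on, was lower in CAS than in the other sources by the largest amount. It had 3.69, 4.07 and 4.00 in CAS, near the background of 3.91, and 4.38, 4.40 and 4.41 in the MC, and it did not pass the threshold against the MC (−0.48, SE 0.22, adjusted p = 0.286). Against the MC, its log2 fold change was 2.55 in SBM, 0.88 in SDPP and 0.35 in YMW. Its difference of −1.74 between CAS and the other sources (SE 0.18, adjusted p = 0.000513) thus includes the level with SBM.

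**Figure D5:**
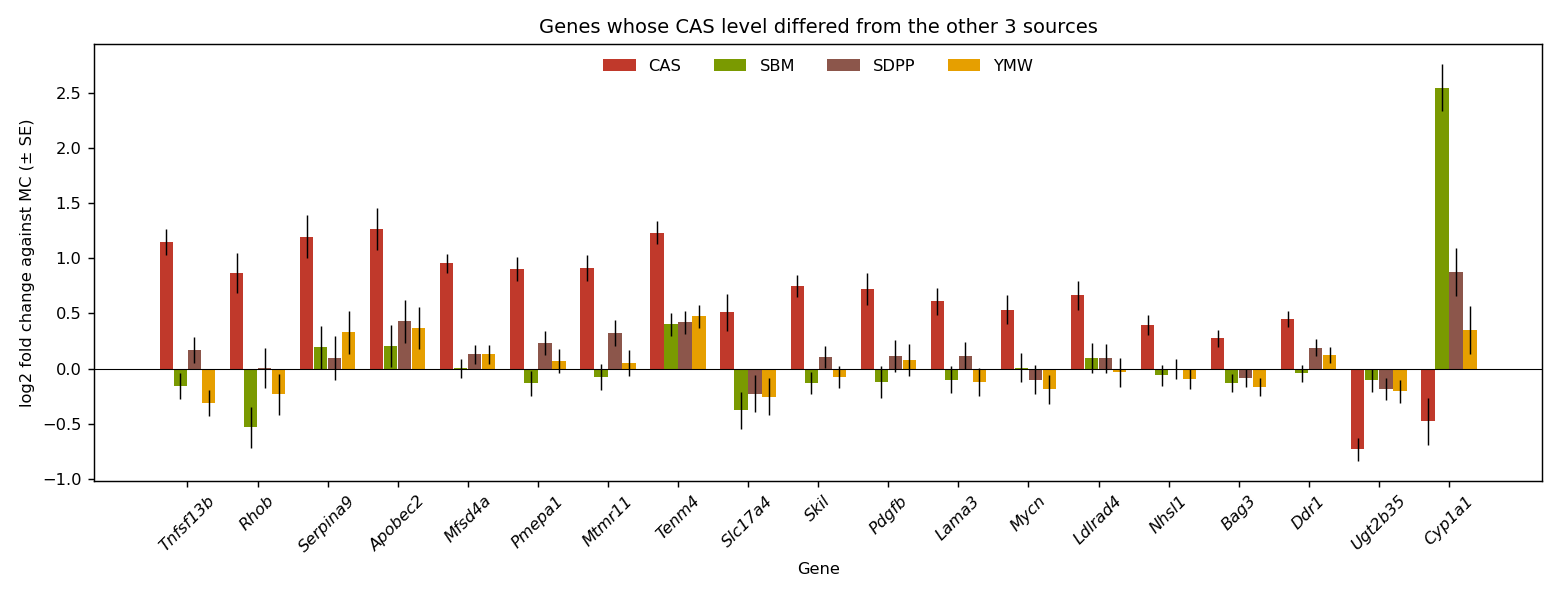
Log2 fold change against the MC (y axis, bars with SE, n = 3 arrays per group) with CAS, SBM, SDPP and YMW for 19 genes whose CAS level differed from the mean of the other 3 sources at an adjusted p under 0.05. CAS has the tallest positive bar for 17 genes, Ugt2b35 is lowest with CAS, and Cyp1a1 is highest with SBM.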

How the data were processed

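RNA of 15 samples was hybridised to Affymetrix mouse gene 1.1 ST arrays, and 6 arrays (3 CAS, 3 MC) carry the main comparison. The deposited intensity values are linear RMA values, background-corrected, normalised and summarised per probe set by the authors, and the RMA version is not given in the sources used here. The design expected log2 values, so the deposited intensities were converted to log2. Of 35556 probe sets 21218 had 1 symbol, 1881 several and 12457 none, and the brightest probe set stood for each of 18820 genes. Background was set at the 95th percentile over 1157 receptor genes of the olfactory and vomeronasal systems (log2 3.91). The number of arrays limits the precision.

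A model with 5 group means was fitted to all 15 arrays with limma 3.58.1 in R 4.3.3 (lmFit, eBayes with an intensity trend). The study's threshold joins p under 0.05 with a change of 1.5-fold or more. On simulated data for CAS against MC, over 18820 genes, it called 32 of 100 genes changed 1.5-fold, 96 of 100 changed 2-fold and 66 of 18620 unchanged genes. The simulated noise was independent between genes and had the same spread in every group, so no MC array stood apart as replicate 1 does here. These counts are therefore not error rates for the measured data. The genes named are the 15 in each direction with the widest gap between nearest CAS and MC arrays, among genes above background, past the threshold and without overlap, leaving out predicted genes and small RNAs. Each gene list adds up to 4 members under the same conditions or, where it has none, its 2 members with the largest change, whether or not they passed, and Tnfsf13b, Cyp1a1, Lyz1 and Muc2 were named because the study names them. The comparison, gene lists and tests were chosen with earlier results of these data known, and some further genes were named after their values were seen. Alternatives changed the arrays in the fit, the normalisation, the filter, the variance model and the threshold.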

Additional observations from a re-analysis of the deposited data

Results flagged for a closer look

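The effect of CAS against the MC differed from that of the other 3 protein sources in 19 named genes, by a direct test of CAS against the mean of SBM, SDPP and YMW (limma, adjusted over 18820 genes). The comparison shares the CAS arrays with that of CAS against the MC. All differences below are log2, CAS minus the other sources.

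Among the genes already described, the difference was 0.80 for Tenm4, 0.93 for Apobec2, 1.25 for Tnfsf13b, 0.87 for Mfsd4a and 0.82 for Mtmr11. It was 0.78 for Skil, 0.85 for Pmepa1, 0.61 for Ldlrad4, 0.65 for Lama3, 0.70 for Pdgfb and 1.12 for Rhob. Cyp1a1 had the largest negative difference, −1.74, with its CAS level near background.

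Genes not described above included Serpina9, a serpin known from germinal centre B cells, with 0.99, and Slc17a4, an intestinal anion transporter, with 0.80. Mycn, a transcription factor of the MYC family, had 0.63, Nhsl1 had 0.45, Bag3, a co-chaperone, had 0.40 and Ddr1, a collagen receptor kinase, had 0.36. Ugt2b35, a glucuronosyltransferase whose relatives are alike in sequence, was lower in CAS with a difference of −0.57. The adjusted p-values of these 19 genes lay between 4.94e-05 (Tnfsf13b, Mfsd4a) and 0.0485 (Ldlrad4).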

How the results depend on the processing

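For CAS against MC, the count of 725 genes past the study's threshold was 450 with the 6 arrays alone, 157 with MC replicate 1 as the only control, 1475 with array weights, an estimate that stopped before it converged, 45 at a log2 fold change of at least 1.5 and 3104 with no fold threshold. Over all probe sets it was 1125. Leaving out 1 array gave 238 to 1708, at 472 when CAS replicate 1 was dropped and at 1708, 362 and 238 when MC replicate 1, 2 or 3 was. The 123 genes at an adjusted p under 0.05 became 0 with the 6 arrays alone (where 450 genes passed at an unadjusted p and a 1.5-fold change), 11 against MC replicate 1 alone, 31 over all probe sets and 7530 with array weights. Leaving out 1 array gave 4 to 3685, at 7, 4 and 57 for CAS replicates 1, 2 and 3 and at 3685, 10 and 16 for MC replicates 1, 2 and 3. The 251 genes whose CAS and MC arrays do not overlap became 531 over all probe sets, 7 at a log2 fold change of at least 1.5 and 1450 with no fold threshold, and 155 to 1705 without 1 array, at 649 when CAS replicate 3 was dropped and at 1705 and 155 when MC replicate 1 or 3 was. The 30 genes of CAS against the other sources became 29 to 54, at 54 when CAS replicate 3 was dropped. Other settings stayed within 1.5 times, apart from the replicate block, where 35 genes had an adjusted p under 0.05 from limma. The causes were not tested.

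The replicate number as a block gave 35 genes at an adjusted p under 0.05 and 702 past the study's threshold. Over 30 same-numbered pairs the median correlation of deviations from the group means was −0.15, and for CAS with the MC it ran between −0.24 and 0.53. No pairing by number was thus seen. These values cannot tell whether a number marks a mouse, because the split between the MC arrays is part of the deviations.

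Of 108 named genes past the threshold, 95 stayed past it with the 6 arrays alone and 70 without MC replicate 3. Against MC replicate 1 alone 31 stayed past it, 62 kept their direction only and 15 turned: Zg16 to 0.22, Tac1 to −0.013, Fn1 to −0.50, Cenpf to −0.13, Bub1 to −0.074, Pole to −0.20, Dusp6 to 0.073, Etv5 to −0.17, Lgr5 to −0.061, Apoc2 to 0.29, Slc7a9 to 0.18, Mep1b to 0.035, Mme to 0.035, Slc46a1 to 0.25 and Lcn2 to −0.091 (log2). Of the 251 genes without overlap, 58 stayed past the threshold against that array and 239 without it.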

Other observations

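The CAS and MC arrays also did not overlap in Ghr, Unc5cl, Nod2 and Eef2k, single genes that were named after their values were seen. Ghr, the growth hormone receptor, had 7.02, 7.07 and 7.01 in CAS and 6.51, 5.87 and 5.65 in the MC (1.02, SE 0.16, adjusted p = 0.0154). Unc5cl, an activator of NF-kappaB in mucosal epithelium, had 7.72, 7.51 and 7.60 in CAS and 7.03, 6.95 and 6.98 in the MC (0.62, SE 0.10, adjusted p = 0.0165). Nod2, a sensor of bacterial peptidoglycan, had 5.26, 5.33 and 5.12 in CAS and 4.75, 4.54 and 4.56 in the MC (0.62, SE 0.12, adjusted p = 0.0435). In each of these 3 genes MC replicate 1 was the highest MC array, by a smaller distance in Unc5cl and Nod2 than in Ghr.

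Eef2k, the kinase that slows the elongation step of translation, had 8.46, 8.40 and 8.42 in CAS and 7.95, 7.59 and 7.61 in the MC (0.71, SE 0.10, adjusted p = 0.00875). Slc26a2, a sulfate transporter, had 8.28, 8.25 and 8.60 in CAS and 8.95, 9.16 and 9.38 in the MC (−0.78, SE 0.16, adjusted p = 0.0435). Genes that glucocorticoids induce included Sgk1, a kinase of sodium transport, with 4.26, 4.27 and 4.48 in CAS and 4.62, 6.14 and 6.58 in the MC (−1.44, SE 0.36, adjusted p = 0.0899), and Fkbp5, a co-chaperone of the glucocorticoid receptor, with −1.01 (SE 0.24, adjusted p = 0.0776). Hif3a, of the same list, was higher without overlap (0.66, SE 0.17, adjusted p = 0.0885). Of 27 genes of that list 5 were higher and 5 lower without overlap (18.5% each, against 5.65% and 7.59% of all genes).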
